A study of Mus musculus with 6 samples.

Results

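Kidney RNA collected around dawn was compared with kidney RNA collected around dusk. The members are the libraries at ZT20, ZT0 and ZT4 (dawn group, n = 3) and at ZT8, ZT12 and ZT16 (dusk group, n = 3), which are 6 of the 6 libraries of the series. Zeitgeber time (ZT) counts hours from lights on, and each library was put in its group by the time point in its label. The kidneys came from males of BALB/c, an albino strain of inbred mice, in week 8 after birth, kept in a cycle of light and dark. No mutation, transgene, drug or surgery is named in the labels, and the labels give no difference between the groups other than sampling time. A single library stands for each time. The time points therefore act as the replicates of a group, and the spread within a group holds both the difference between samples and the daily course between its 3 times.

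Most mammalian cells carry a clock in which BMAL1 (gene Arntl) with CLOCK or NPAS2 drives the period and cryptochrome genes, whose products then repress that pair. REV-ERB and ROR receptors turn Arntl down and up, and D-box factors such as DBP carry the rhythm to output genes. In the kidney this clock is known to act on salt and water transport, metabolism and drug handling. A comparison of dawn with dusk asks which genes are apart at opposite ends of the day, and a gene that peaks near the border of the groups, between ZT4 and ZT8 or between ZT16 and ZT20, has high libraries on both sides.

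Levels are FPKM, fragments scaled by transcript length and by the fragments mapped in a library, summed over all transcripts of a gene symbol. Of 51803 symbols, 12709 had a mean of at least 1 FPKM and were tested. FPKM summed to between 534448 and 577493 per library, and mitochondrial transcripts held between 22.2% (ZT20) and 28.6% (ZT4) of it. Read depth is unknown. In a principal component analysis the first component (31.4% of the variance) set ZT16 (0.41) and ZT20 (0.68), 1 library of each group, apart from the other 4 (-0.39 to -0.03). The second (22.8%) separated the groups, with the dawn libraries between 0.24 and 0.56 and the dusk libraries between -0.52 and -0.17. The tissue matched its label. Slc34a1, the phosphate transporter of the proximal tubule, lay between 937 and 1023 FPKM over the 6 libraries, and Umod, which encodes uromodulin of the thick ascending limb, between 719 and 1082 FPKM. Markers of the adrenal gland summed to at most 0.394 FPKM in any library, with Cyp11b1, Cyp11b2, Th and Dbh listed at 0 in all 6, and those of skeletal muscle to at most 0.427 FPKM.

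Most genes were near the same level in both groups, and clock genes such as Npas2 and Ciart were among those farthest apart. The median difference over all genes tested was 0.00 on the log2 scale, and the median size of the difference was 0.08. Differences are of log2(FPKM + 1), dawn minus dusk, with their SE, so they understate the change of low genes. A single gene passed the test (limma, Benjamini-Hochberg adjusted p under 0.05), which is 0.00787% of the genes tested, and it was higher around dusk. At an unadjusted p under 0.05 there were 699 genes (5.5%), of which 354 (2.79%) were higher around dawn and 345 (2.71%) around dusk. All 3 libraries of one group lay above all 3 of the other in 1290 genes (10.2%), 675 (5.31%) toward dawn and 615 (4.84%) toward dusk. With mitochondrial transcripts left out and the rest rescaled, the non-overlapping genes split into 1112 toward dawn and 341 toward dusk, and those at an unadjusted p under 0.05 into 515 and 216. That scaling moved the median difference of all genes to 0.04. Without that rescaling, the median difference of the non-overlapping genes was 0.21 in either direction, and 55 of them toward dawn and 78 toward dusk were apart by 0.5 or more (0.433% and 0.614% of all genes tested). Among the non-overlapping genes the highest library was most often ZT0 on the dawn side (294 of 675, 43.6%) and ZT12 on the dusk side (246 of 615, 40%). An exact permutation test of 3 against 3 cannot go below 0.10, so none is given per gene. A complete order of 3 against 3 has that same rate, 0.10, when the 6 libraries are interchangeable, and 10.2% of genes showed it. The 5.5% of genes at an unadjusted p under 0.05 is also near its threshold. Neither count is therefore read as a number of genes that differ between dawn and dusk.

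The gene that passed was Gm11966, annotated as a processed pseudogene of 87 bases (chr11:5818497-5818583, reverse strand, GRCm38). It was listed at 0 in the 3 dawn libraries and at 1435 FPKM at ZT8, 736 FPKM at ZT12 and 645 FPKM at ZT16 (limma adjusted p = 3.47e-05). Atp5j, which encodes a subunit of the mitochondrial ATP synthase, has 5 transcripts of 514 to 809 bases that hold these 87 bases letter for letter. Reads inside the shared stretch cannot be told apart between the 2 genes. FPKM is scaled by transcript length, so at 87 bases fewer fragments give the same value than in a long transcript. The whole sequence of Gm11966, from GENCODE M21, is shown for this reason.
Gm11966: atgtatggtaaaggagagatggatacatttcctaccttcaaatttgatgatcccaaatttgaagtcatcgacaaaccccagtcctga
Atp5j itself was at 217 FPKM at ZT20, 199 at ZT0 and 186 at ZT4, against 211 at ZT8, 203 at ZT12 and 228 at ZT16. Those groups overlap, with a log2 difference of -0.09 ± 0.09. When a daily wave was fitted in place of the groups, the difference was -8.64 against -9.78 and no longer passed (adjusted p = 0.103), both depending on the pseudocount since a group is listed at 0. A small nucleolar RNA gene, Gm25848, was likewise listed at 0 in the 3 dawn libraries and at 6.33, 6.24 and 18.8 FPKM at ZT8, ZT12 and ZT16, and did not pass (adjusted p = 0.224).

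The same contrast was also fitted as a 24 h wave, in which a cosine term runs from ZT0 to ZT12 and a sine term takes up the course from ZT6 to ZT18, and there 24 genes passed (0.189% of those tested, limma adjusted p under 0.05). Of these, 13 (0.102%) were higher toward dawn and 11 (0.0866%) toward dusk. In the comparison of groups, 20 did not overlap and 23 had an unadjusted p under 0.05, beside 10.2% and 5.5% of all genes. Both fits use the same 6 libraries, so the counts of 20 and 23 give no independent support. Toward dawn they were Npas2, Dtx4, Clpx, Slc16a1, Ppard, Avpr1a, Bcl7c, Wsb1, Ldoc1l, Cdkn1a, Nr2f6, Slc25a22 and Col4a3. Toward dusk they were Nat8f6, Prnp, Per3, Coq10b, Dbp, Cd200, Nat8f5, Ak4, Jchain, Herpud1 and Glul. The smallest adjusted p was that of Npas2 (0.0115), with a difference of 2.22 ± 0.12 in this fit. The wave model assumes that each gene follows a cosine, and in the comparison of groups none of the 24 passed.

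Clock activators were the list with the highest median toward dawn (1.09 over 4 genes tested). Of these, 3 had an unadjusted p under 0.05, all higher around dawn, beside 2.79% of all genes. Groups did not overlap in 2 of the 4, both toward dawn, beside 5.31% of all genes. Npas2 (chr1:39193731-39363236, forward strand, GRCm38), which encodes the partner that can replace CLOCK, was at 10.05 FPKM at ZT20, 9.78 at ZT0 and 3.01 at ZT4, against 0.354 at ZT8, 0.186 at ZT12 and 1.65 at ZT16. Every dawn library was above every dusk library, with means of 7.61 ± 3.99 FPKM (SD, n = 3) and 0.731 ± 0.804 FPKM and a log2 difference of 2.27 ± 0.46 (limma adjusted p = 0.638). Arntl, which encodes BMAL1, was at 10.7 FPKM at ZT20, 8.79 at ZT0 and 3.83 at ZT4, against 0.371 at ZT8, 0.519 at ZT12 and 5.84 at ZT16. Its log2 difference was 1.76 ± 0.64 (adjusted p = 0.869), and the groups overlapped because ZT16 was above ZT4. Clock was at 13.2 FPKM at ZT20, 12.4 at ZT0 and 13.7 at ZT4, against 8.25 at ZT8, 8.53 at ZT12 and 11.9 at ZT16. It was separated by a narrow margin between ZT0 and ZT16, with a log2 difference of 0.43 ± 0.14 (adjusted p = 0.76).

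Clock repressors lay on the opposite side, with a median of -0.84 over 7 genes tested. All 7 were below 0, and 5 had an unadjusted p under 0.05 toward dusk, beside 2.71% of all genes. Groups did not overlap in 3 of the 7, all toward dusk, beside 4.84% of all genes. Ciart, a repressor of CLOCK and BMAL1 also called Chrono, was at 0.123 FPKM at ZT20, 0.333 at ZT0 and 0.62 at ZT4, against 6.66 at ZT8, 3.76 at ZT12 and 0.781 at ZT16. The order was kept at every time, but ZT16 was close to ZT4, and the means of 0.359 ± 0.249 and 3.73 ± 2.94 FPKM (SD, n = 3) rest on ZT8 and ZT12 on the dusk side. Per3 was at 1.23 FPKM at ZT20, 1.102 at ZT0 and 2.24 at ZT4, against 4.99 at ZT8, 5.52 at ZT12 and 2.46 at ZT16. Per1, which also responds to glucocorticoids, was at 2.43 FPKM at ZT20, 1.102 at ZT0 and 1.87 at ZT4, against 3.79 at ZT8, 5.11 at ZT12 and 3.09 at ZT16. Both period genes were higher in every dusk library, with log2 differences of -1.05 ± 0.27 for Per3 and -0.85 ± 0.22 for Per1 (adjusted p = 0.74 for both).

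Per2 was at 7.77 FPKM at ZT20, 0.941 at ZT0 and 2.01 at ZT4, against 6.03 at ZT8, 10.3 at ZT12 and 11.8 at ZT16. Its high level at ZT20 crossed the dusk range, so the log2 difference of -1.44 ± 0.53 came with an overlap (adjusted p = 0.869). Cry2 was at 5.61 FPKM at ZT20, 3.39 at ZT0 and 4.11 at ZT4, against 5.54 at ZT8, 6.64 at ZT12 and 6.07 at ZT16, with a log2 difference of -0.42 ± 0.16. The overlap there was a single pair, ZT20 above ZT8. Bhlhe40, which encodes the repressor DEC1, was 21.1 to 38.5 FPKM around dawn and 34.6 to 51.5 FPKM around dusk.

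The stretches of 250 bases before the transcription start of these repressors are shown because all 3 genes were higher in every dusk library and the stretches hold the letters read by clock factors. The sequences are RefSeq promoters of GRCm38.p6. Capitals mark the E-box CACGTG, to which CLOCK and BMAL1 bind, and the D-box, searched as TTATGTAA or TTATGCAA, to which DBP, TEF and HLF bind.
Ciart, chr3:95882229-95882478, reverse strand: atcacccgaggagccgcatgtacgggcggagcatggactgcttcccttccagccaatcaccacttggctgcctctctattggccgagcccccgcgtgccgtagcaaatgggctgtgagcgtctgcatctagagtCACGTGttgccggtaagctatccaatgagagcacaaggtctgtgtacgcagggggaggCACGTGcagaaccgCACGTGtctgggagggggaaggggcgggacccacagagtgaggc
Per1, chr11:69098699-69098948, forward strand: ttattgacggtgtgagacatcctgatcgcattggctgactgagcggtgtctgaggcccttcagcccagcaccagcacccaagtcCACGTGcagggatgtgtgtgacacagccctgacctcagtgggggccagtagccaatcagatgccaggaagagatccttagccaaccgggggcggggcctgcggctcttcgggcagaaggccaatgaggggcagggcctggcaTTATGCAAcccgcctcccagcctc
Per3, chr4:151044666-151044915, reverse strand: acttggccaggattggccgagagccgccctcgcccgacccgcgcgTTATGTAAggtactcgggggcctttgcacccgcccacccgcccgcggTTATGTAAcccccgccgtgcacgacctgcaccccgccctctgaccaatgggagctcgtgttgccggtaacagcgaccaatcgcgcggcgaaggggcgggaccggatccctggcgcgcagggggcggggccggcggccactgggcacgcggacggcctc
Ciart held 3 E-boxes, at 116, 58 and 44 bases before the start. Per1 held an E-box at 166 and a D-box at 24 bases before it, and Per3 held 2 D-boxes, at 205 and 158 bases before it. Both strands were searched over 250 bases before to 50 after each start. The E-box was found in 7.15% of all 32851 promoter entries and the D-box in 1.66%. Of the 46 clock genes tested, 37 had an entry, and of their 51 entries 7 held an E-box and 3 a D-box. No motif overlapped another in these 3 promoters. Per1 has another start in the table, chr11:69099902-69100151 on the forward strand for the 250 bases before it, which held no match. A match is a description of the letters and was not tested against the levels.

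A start of Arntl was followed by TAGGTCA at position 31 after the start, a form of the element that REV-ERB and ROR receptors bind (searched as TAGGTCA or TGGGTCA, found in 6.45% of all promoter entries and in 3 of the 51 of clock genes). Its surroundings are shown with the match in capitals.
Arntl, chr7:113207531-113207557, forward strand: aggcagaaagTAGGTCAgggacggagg
Arntl was high at ZT20 and ZT0 and low at ZT8 and ZT12, while Nr1d1, which encodes REV-ERBα, was at 1.14 FPKM at ZT20, 12.9 at ZT0 and 39.97 at ZT4, against 27.9 at ZT8, 7.67 at ZT12 and 1.47 at ZT16. Nr1d1 peaked across the border of the groups, at ZT4 and ZT8, so its log2 difference was 0.33 ± 1.21 and the groups overlapped. The difference turned to -0.64 without the library at ZT4 and to -0.57 without that at ZT16.

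Several clock genes with large daily ranges had high libraries in both groups. Dbp was at 2.54 FPKM at ZT20, 2.66 at ZT0 and 18.4 at ZT4, against 65.9 at ZT8, 36.1 at ZT12 and 5.07 at ZT16. Its log2 difference was -1.97 ± 0.99 (adjusted p = 0.982), and ZT4 was above ZT16. It ranged from -1.25 without ZT8 to -2.98 without ZT16. Nr1d2, the paralog of Nr1d1, was at 6.3998 FPKM at ZT20, 15.99 at ZT0 and 32.9 at ZT4, against 45.9 at ZT8, 43.97 at ZT12 and 19.4 at ZT16. Nfil3, which encodes a repressor at D-boxes, was at 13.5 FPKM at ZT20, 5.47 at ZT0 and 1.22 at ZT4, against 0.597 at ZT8, 2.34 at ZT12 and 4.88 at ZT16. Its level was highest at ZT20, next to the border, and the log2 difference of 0.91 ± 0.72 ranged from 0.27 without ZT20, and 0.42 without ZT8, to 1.62 without ZT4. Cry1 was at 9.29 FPKM at ZT20, 2.45 at ZT0 and 0.614 at ZT4, against 1.79 at ZT8, 5.91 at ZT12 and 9.05 at ZT16. It was high at ZT16 and ZT20 and low at ZT4, with a log2 difference of -0.59 ± 0.72, which became 0.04 without ZT4. Tef (-0.59 ± 0.28) and Hlf (-0.35 ± 0.13), relatives of Dbp, were nearer to 0 than Dbp. Each of these genes overlapped between the groups. Of the 4 receptors and the 4 D-box genes tested, 1 (Hlf) had an unadjusted p under 0.05 and none had groups apart. Over all genes, these shares were 5.5% and 10.2%.

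**Figure D1:**
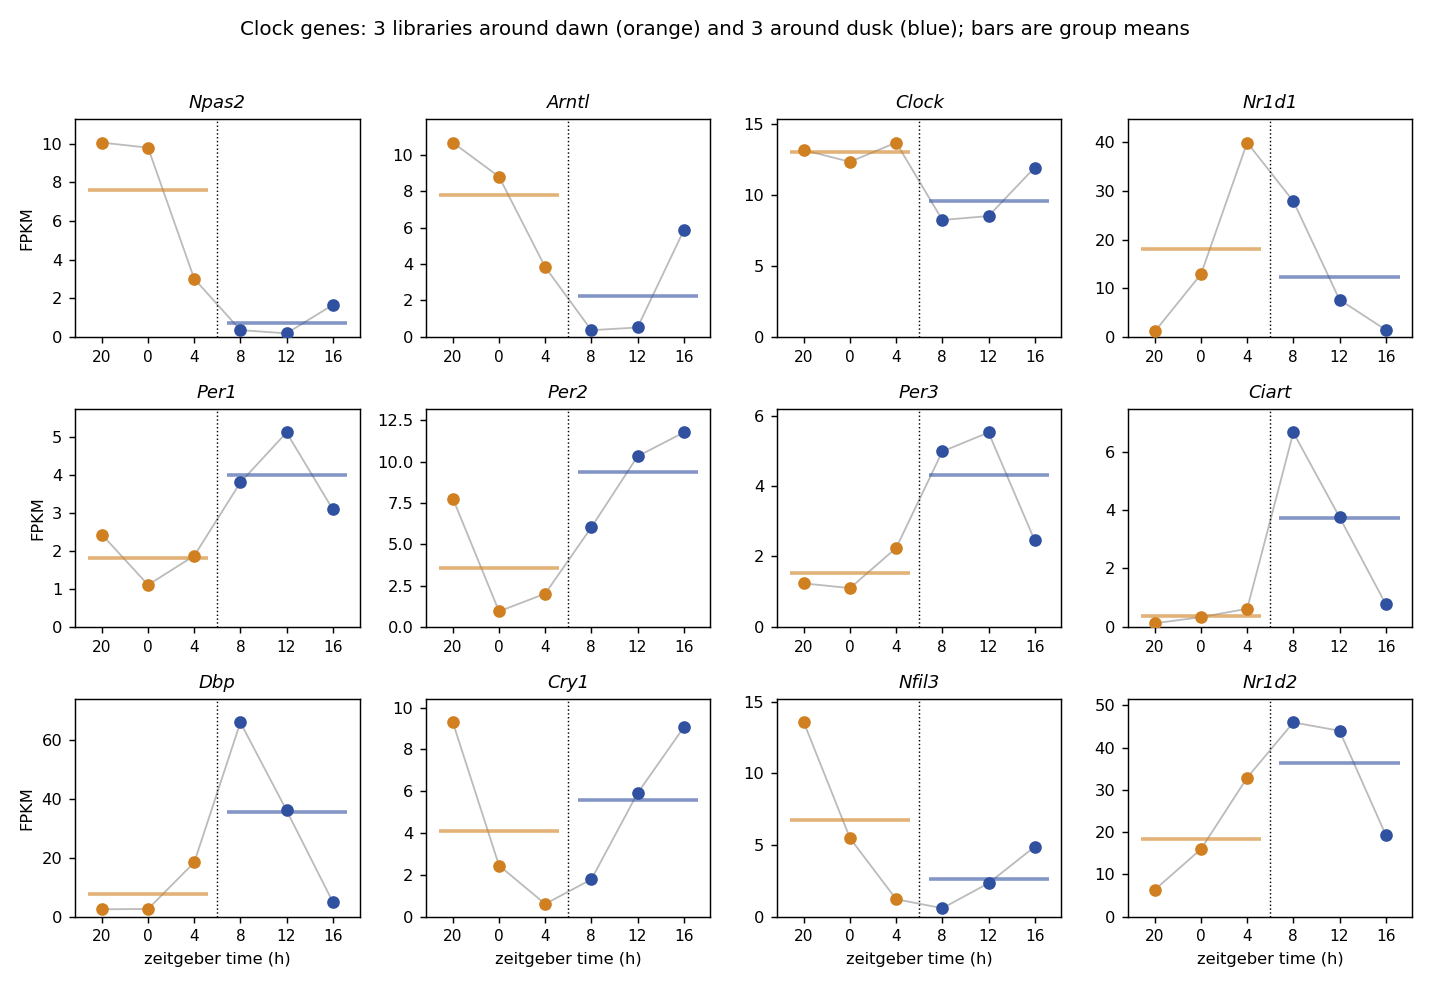
FPKM of 12 clock genes (vertical axes) in the 6 libraries in order of the day from ZT20 to ZT16 (horizontal axes); points are single libraries, orange around dawn and blue around dusk, and bars are group means. Npas2 is at 3.01 FPKM or more in each dawn library and at 1.65 FPKM or less in each dusk library, Ciart, Per1 and Per3 are higher in each dusk library, and Nr1d1, Nr1d2 and Cry1 are high on both sides of a border.

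Output genes of the clock were split between the groups. Of 14 tested, 5 had an unadjusted p under 0.05 toward dawn and 5 toward dusk, beside 2.79% and 2.71% of all genes. Groups did not overlap in 4 toward dawn and 5 toward dusk, beside 5.31% and 4.84% of all genes. The list was chosen with earlier results of these data known, so nothing is read from these counts. Ppard, which encodes a fatty acid receptor, was at 20.3 FPKM at ZT20, 18.4 at ZT0 and 10.2 at ZT4, against 4.19 at ZT8, 4.21 at ZT12 and 6.42 at ZT16. Means of 16.3 ± 5.38 and 4.94 ± 1.28 FPKM (SD, n = 3) gave a log2 difference of 1.51 ± 0.26 (limma adjusted p = 0.505). Dtx4, a ubiquitin ligase, was at 7.96 FPKM at ZT20, 7.89 at ZT0 and 5.08 at ZT4, against 2.01 at ZT8, 1.998 at ZT12 and 4.13 at ZT16. Cdkn1a, the cell cycle inhibitor p21, was 2.48 to 4.33 FPKM around dawn and 1.06 to 2.197 around dusk. All 3 genes were higher in every dawn library, with log2 differences of 1.13 ± 0.25 for Dtx4 and 0.87 ± 0.22 for Cdkn1a. Avpr1a, a vasopressin receptor, had a log2 difference of 0.78 ± 0.28 with an overlap of ZT4 and ZT16.

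On the dusk side, Wee1, a kinase that delays mitosis, was at 3.29 FPKM at ZT20, 2.44 at ZT0 and 1.82 at ZT4, against 4.904 at ZT8, 6.87 at ZT12 and 4.79 at ZT16 (log2 difference -0.90 ± 0.19, adjusted p = 0.638). Usp2, which removes ubiquitin from clock proteins, was at 36.7 FPKM at ZT20, 27.8 at ZT0 and 31.6 at ZT4, against 57.8 at ZT8, 71.2 at ZT12 and 39.6 at ZT16 (log2 difference -0.76 ± 0.21). Both had all dusk libraries above all dawn libraries. Nampt, the rate-limiting enzyme of NAD salvage, was at 39.5 FPKM at ZT20, 38.3 at ZT0 and 37.5 at ZT4, against 50.9 at ZT8, 60.7 at ZT12 and 51.04 at ZT16. Its dawn libraries had a mean of 38.4 ± 1.02 FPKM and the dusk libraries of 54.2 ± 5.64 FPKM (SD, n = 3), and the log2 difference was -0.48 ± 0.09 (adjusted p = 0.572). Tspan4 (-0.60 ± 0.13) and Cys1 (-0.47 ± 0.13), a protein of primary cilia, were also higher in each dusk library. Of the 14 kinases and ubiquitin enzymes of the clock, Usp2 alone had an unadjusted p under 0.05 or groups apart, and their median was -0.02. Such a p was found in 5.5% of all genes, and groups apart in 10.2%.

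The 12 genes with the smallest p in each direction (mean of at least 5 FPKM, unnamed gene models left out) all had groups apart, and none passed (limma adjusted p between 0.224 and 0.638). They were chosen by p, so nothing is read from their number, and they include Ppard and Nampt. Among the dawn genes, Slc25a22 (chr7:141429744-141437892, reverse strand, GRCm38), a glutamate carrier of the inner membrane, was at 13.6 FPKM at ZT20, 18.4 at ZT0 and 13.5 at ZT4, against 7.92 at ZT8, 6.51 at ZT12 and 6.11 at ZT16. The means were 15.2 ± 2.79 and 6.85 ± 0.95 FPKM (SD, n = 3), with a log2 difference of 1.04 ± 0.14 (limma adjusted p = 0.297). Clpx, the unfolding subunit of a matrix protease that also acts on the first enzyme of heme synthesis, was at 71.2 FPKM at ZT20, 95.4 at ZT0 and 66.97 at ZT4, against 39.7 at ZT8, 36.6 at ZT12 and 49.4 at ZT16. It was highest at ZT0 and lowest at ZT12, with a log2 difference of 0.87 ± 0.16 (adjusted p = 0.572). Ethe1, an enzyme of sulfide oxidation, was at 64.1 FPKM at ZT20, 69.8 at ZT0 and 58.1 at ZT4, against 44.7 at ZT8, 27.2 at ZT12 and 36.8 at ZT16. Cluh, which binds mRNAs of mitochondrial proteins, was 48.9 to 59.6 FPKM around dawn and 35.8 to 38.8 around dusk. Amt, of the glycine cleavage system, was 37.6 to 41.6 and 25.9 to 32.2 FPKM.

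The smallest p toward dawn belonged to Snx29, a sorting nexin, at 31.996 FPKM at ZT20, 33.4 at ZT0 and 30.005 at ZT4, against 18.2 at ZT8, 20.97 at ZT12 and 20.9 at ZT16 (log2 difference 0.64 ± 0.09, adjusted p = 0.297). Faah, which degrades fatty acid amides such as anandamide, was at 20.7 FPKM at ZT20, 23.3 at ZT0 and 21.6 at ZT4, against 15.1 at ZT8, 14.7 at ZT12 and 14.6 at ZT16. The gap between its groups was wide against the spread inside them, with means of 21.9 ± 1.29 and 14.8 ± 0.26 FPKM (SD, n = 3) and a log2 difference of 0.54 ± 0.07 (adjusted p = 0.297). Slc7a8, a neutral amino acid transporter of the basolateral membrane, was at 24.7 FPKM at ZT20, 19.7 at ZT0 and 18.3 at ZT4, against 12.5 at ZT8, 10.5 at ZT12 and 14.4 at ZT16. Htra1, a secreted protease (0.41 ± 0.08), Ptprk, a receptor phosphatase (0.35 ± 0.07), and Mfsd4b3 (0.52 ± 0.11) had smaller log2 differences. In all of these every dawn library was above every dusk library.

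Herpud1 (chr8:94386438-94395377, forward strand, GRCm38), which takes part in the degradation of proteins from the endoplasmic reticulum, had the smallest p of the named genes on either side. It was at 102 FPKM at ZT20, 94.2 at ZT0 and 107 at ZT4, against 155 at ZT8, 178 at ZT12 and 173 at ZT16. The means were 101 ± 6.496 and 168 ± 12.1 FPKM (SD, n = 3), 1.67-fold higher around dusk, with a log2 difference of -0.73 ± 0.09 (limma adjusted p = 0.224). Coq10b, a coenzyme Q binding protein of mitochondria, was at 33.3 FPKM at ZT20, 24.4 at ZT0 and 38.4 at ZT4, against 79.9 at ZT8, 73.8 at ZT12 and 52.7 at ZT16. It was 2.15-fold higher around dusk, with a log2 difference of -1.08 ± 0.20 (adjusted p = 0.572), and highest at ZT8. Its promoter is shown because it holds both kinds of element, an E-box at 78 and a D-box, read on the reverse strand, at 162 bases before the start.
Coq10b, chr1:55052520-55052769, forward strand: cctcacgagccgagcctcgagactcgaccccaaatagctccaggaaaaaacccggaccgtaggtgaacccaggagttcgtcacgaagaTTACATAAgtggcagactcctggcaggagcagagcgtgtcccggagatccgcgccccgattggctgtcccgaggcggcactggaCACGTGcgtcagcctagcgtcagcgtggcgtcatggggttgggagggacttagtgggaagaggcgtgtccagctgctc
Of the 12 dusk genes 11 had promoter entries, and of those 12 entries 2 held an E-box and 2 a D-box, and of 15 entries of 11 dawn genes 1 held an E-box and none a D-box.

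Among the remaining dusk genes, Bnip3, a receptor for the removal of mitochondria, was at 74.1 FPKM at ZT20, 80.1 at ZT0 and 73.7 at ZT4, against 103 at ZT8, 111 at ZT12 and 105 at ZT16. Its groups were narrow, with a log2 difference of -0.48 ± 0.07 (adjusted p = 0.365). Mknk2, a kinase of the translation factor eIF4E, was at 33.3 FPKM at ZT20, 35.2 at ZT0 and 28.7 at ZT4, against 46.1 at ZT8, 49.9 at ZT12 and 47.6 at ZT16. Tmem207 (-0.61 ± 0.09), a membrane protein, Slc22a26 (-0.42 ± 0.08), of the organic anion transporter family, and Misp (-0.50 ± 0.09), an actin binding protein of the spindle, were also above all dawn libraries. Acsl4, a ligase of long fatty acids, was 22.2 to 22.3 FPKM around dawn and 27.5 to 29.3 around dusk. Its most abundant transcript, which holds 70.5% of the gene, overlapped between the groups.

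**Figure D2:**
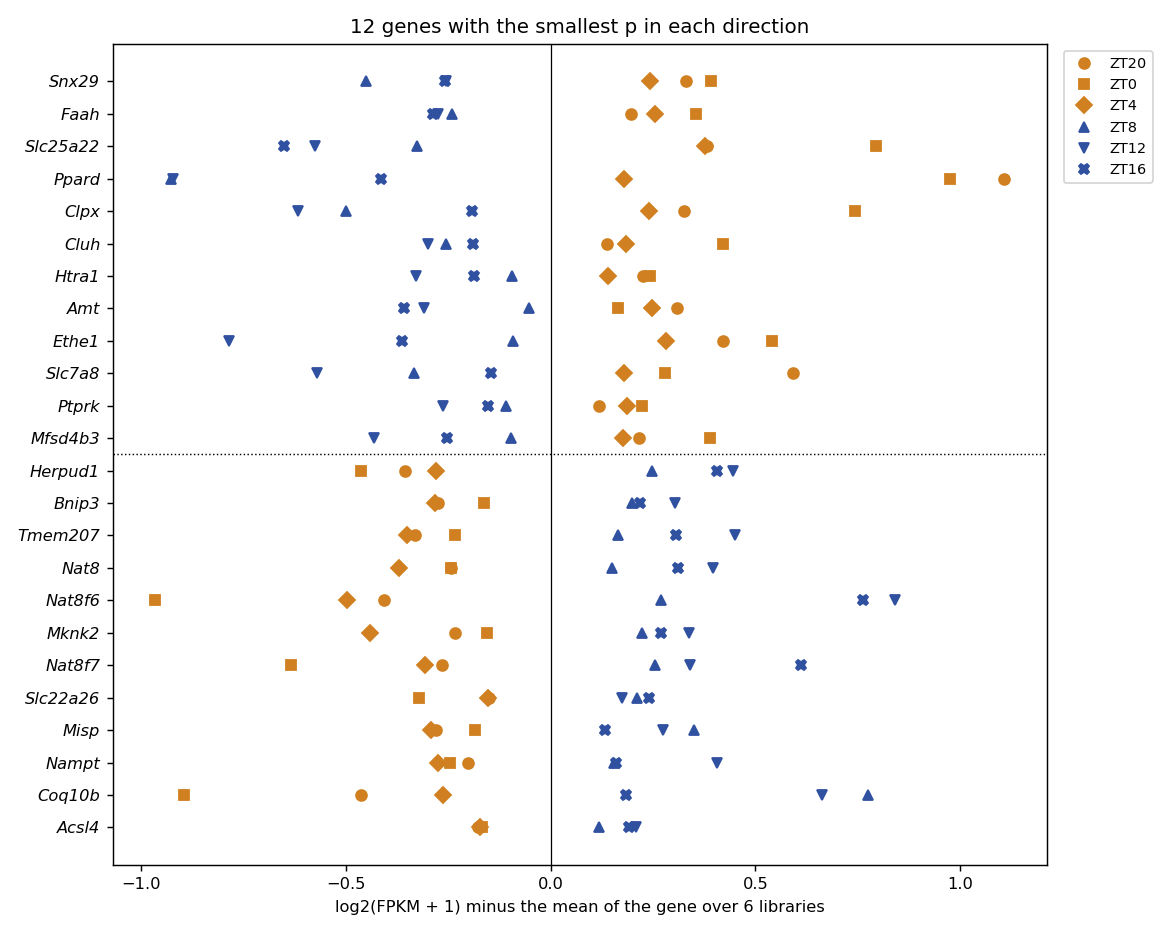
The 12 genes with the smallest p toward dawn (above the dotted line) and toward dusk (below it), as log2(FPKM + 1) minus the mean of the gene (horizontal axis); symbols are single libraries, orange around dawn and blue around dusk. The 2 colours are apart in all 24 genes, which were chosen for their p, and Ppard and Nat8f6 are spread most widely.

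In xenobiotic metabolism, the genes at an unadjusted p under 0.05 all lay toward dusk, and most of these are Nat8 paralogs, a cluster of N-acetyltransferase genes on chromosome 6 that act on cysteine conjugates. Of 32 genes tested, 9 had an unadjusted p under 0.05 toward dusk and none toward dawn, beside 2.71% and 2.79% of all genes, and 6 of the 9 were Nat8 paralogs. Nat8f6 was at 28.8 FPKM at ZT20, 19.2 at ZT0 and 26.98 at ZT4, against 46.6 at ZT8, 69.7 at ZT12 and 65.96 at ZT16 (log2 difference -1.25 ± 0.20, limma adjusted p = 0.38). Nat8f5 was at 37.8 FPKM at ZT20, 30.7 at ZT0 and 26.9 at ZT4, against 49.1 at ZT8, 85.1 at ZT12 and 84.1 at ZT16 (log2 difference -1.14 ± 0.23). Both were lowest in a library of ZT0 or ZT4 and highest at ZT12. Nat8 itself was at 120.0 FPKM at ZT20, 120.2 at ZT0 and 109.8 at ZT4, against 158 at ZT8, 188 at ZT12 and 177 at ZT16 (log2 difference -0.57 ± 0.09). Nat8f7 (-0.80 ± 0.14), Nat8f3 (-0.93 ± 0.25) and Nat8f2 (-0.30 ± 0.10) were higher in each dusk library, whereas Nat8f1 (-0.32 ± 0.17) overlapped with a high ZT20. The paralogs are near copies that can share reads, so their separate values are uncertain and the 6 are not independent. This list was chosen with earlier results of these data known, so nothing is read from its counts. The remaining 3 of the 9 were Alas1, Cyp2a5 (-0.66 ± 0.26) and Ephx1 (-0.35 ± 0.14), of which Alas1 alone had groups apart.

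Heme genes lay on both sides. Alas1, the first and rate-limiting enzyme of heme synthesis, was at 75.5 FPKM at ZT20, 45.7 at ZT0 and 72.9 at ZT4, against 108 at ZT8, 109.6 at ZT12 and 102 at ZT16. Its dusk libraries were within 102 to 109.6 FPKM, all above the dawn libraries, with a log2 difference of -0.74 ± 0.18 (adjusted p = 0.733), opposite to Clpx. Urod, a later enzyme, was 37.8 to 45.8 FPKM around dawn and 46.9 to 52.6 around dusk. Of 14 genes tested, 1 had an unadjusted p under 0.05 toward dawn and 2 toward dusk, beside 2.79% and 2.71% of all genes. In NAD metabolism, Nmrk1, the nicotinamide riboside kinase, was 10.3 to 17.1 and 21.9 to 25.6 FPKM, on the side of Nampt. Acmsd, which diverts tryptophan breakdown from NAD, was at 146 FPKM at ZT20, 119.5 at ZT0 and 129.7 at ZT4, against 86.5 at ZT8, 52.7 at ZT12 and 94.8 at ZT16. It was higher in every dawn library, with a log2 difference of 0.79 ± 0.21 (adjusted p = 0.74). The other 15 of 18 NAD and sirtuin genes had neither an unadjusted p under 0.05 nor groups apart, beside 5.5% and 10.2% of all genes with them.

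Cholesterol synthesis had a median of 0.15 over 24 genes, and 17 of the 24 were above 0. Of them 4 had an unadjusted p under 0.05 toward dawn and none toward dusk, beside 2.79% and 2.71% of all genes. Idi1, an isomerase of the isoprenoid pathway, was at 52.8 FPKM at ZT20, 43.9 at ZT0 and 63.2 at ZT4, against 34.6 at ZT8, 29.4 at ZT12 and 37.4 at ZT16 (log2 difference 0.63 ± 0.15, adjusted p = 0.688). It was higher in every dawn library, as was Srebf2 (0.25 ± 0.09), the master regulator of the pathway, while Nsdhl (0.25 ± 0.10) overlapped. Among 29 genes of fatty acid oxidation and PPAR targets, 2 had an unadjusted p under 0.05 toward dawn, Ppard and Acot2 (0.25 ± 0.09). None had one toward dusk, beside 2.79% and 2.71% of all genes. Of the 29, 18 were below 0, with a median of -0.05. Pck1, the rate-limiting enzyme of gluconeogenesis, was at 656 FPKM at ZT20, 549.6 at ZT0 and 376 at ZT4, against 752 at ZT8, 692 at ZT12 and 842 at ZT16 (log2 difference -0.56 ± 0.20). It was lowest at ZT4 and above all dawn libraries around dusk. Gatm, the first enzyme of creatine synthesis, was 42.5 to 53.1 FPKM around dawn and 23.7 to 41.5 around dusk (0.63 ± 0.19).

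Solute carriers for amino acids and monocarboxylates were higher around dawn where the unadjusted p was under 0.05. Of 15 tested, 4 had an unadjusted p under 0.05 toward dawn and none toward dusk, beside 2.79% and 2.71% of all genes, and the median was 0.09. Slc16a1, the lactate and ketone body transporter MCT1, was at 20.3 FPKM at ZT20, 27.99 at ZT0 and 12.9 at ZT4, against 4.45 at ZT8, 5.28 at ZT12 and 11.9 at ZT16. The means were 20.4 ± 7.54 and 7.22 ± 4.09 FPKM (SD, n = 3), 2.83-fold higher around dawn, with a log2 difference of 1.43 ± 0.38 (limma adjusted p = 0.74). The libraries at ZT4 and ZT16 were the nearest pair. Slc16a10, which carries aromatic amino acids, was 14.2 to 16.1 FPKM around dawn and 11.3 to 12.3 around dusk. Slc1a1, the glutamate transporter of the brush border, had a log2 difference of 0.21 ± 0.08. Slc7a8 completes the 4. Earlier results of these data were known when the list was chosen, so nothing is read from its counts. Of the 17 organic anion and cation transporters listed, none had an unadjusted p under 0.05 or groups apart in this fit (limma). Over all genes, the shares were 5.5% and 10.2%. The median of the 17 was -0.04. Slc22a26, named above among the dusk genes with groups apart, was not in this list.

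In the list of aldosterone and epithelial sodium channel genes, 12 of 14 were below 0, with a median of -0.15. The list is not confined to the collecting system, and some members, such as Usp2 and Fkbp5, are also counted in other lists. Of them 3 had an unadjusted p under 0.05 and 5 had groups apart, all toward dusk, beside 2.71% and 4.84% of all genes. Scnn1a, a subunit of the epithelial sodium channel, was at 24.9 FPKM at ZT20, 21.4 at ZT0 and 18.7 at ZT4, against 25.5 at ZT8, 29.6 at ZT12 and 27.4 at ZT16 (log2 difference -0.34 ± 0.12, adjusted p = 0.823). Atp1b1, a subunit of the sodium pump, was at 951 FPKM at ZT20, 1009.8 at ZT0 and 1133 at ZT4, against 1240.4 at ZT8, 1349 at ZT12 and 1141 at ZT16 (log2 difference -0.27 ± 0.10). Both were above all dawn libraries by narrow margins, and Usp2 and Prss8 (-0.14 ± 0.08), a protease that activates the channel, were also higher in each dusk library. Markers of principal cells, which hold this channel, summed to 264 to 362 FPKM around dawn and 315 to 395 FPKM around dusk, and their part was not tested. Sgk1, the kinase that aldosterone induces, was at 23.3 FPKM at ZT20, 12.7 at ZT0 and 7.97 at ZT4, against 8.49 at ZT8, 21.2 at ZT12 and 31.97 at ZT16. Its highest libraries were ZT16 and ZT20, across the border, and the groups overlapped. Per1 was counted in the list of glucocorticoid targets, which had a median of -0.25. There 2 of 19 genes had an unadjusted p under 0.05 toward dusk, Per1 and Sult1a1, beside 2.71% of all genes. Cdkn1a was the 1 toward dawn, beside 2.79%. Tsc22d3, a classical target of the receptor, was at 39.3 FPKM at ZT20, 10.04 at ZT0 and 13.7 at ZT4, against 19.9 at ZT8, 54.6 at ZT12 and 54.5 at ZT16, and was high from ZT12 to ZT20.

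The segments before the collecting duct did not lie on 1 side. Slc12a3, the thiazide-sensitive cotransporter of the distal convoluted tubule, was at 127 FPKM at ZT20, 173 at ZT0 and 152 at ZT4, against 112 at ZT8, 114 at ZT12 and 114 at ZT16 (log2 difference 0.40 ± 0.11, adjusted p = 0.74). Every dawn library was higher, but the most abundant transcript, 39.2% of the gene, overlapped (0.16). The 6 markers of this segment, with Slc12a3 among them, summed to 621 to 711 FPKM around dawn and 604 to 634 FPKM around dusk. In the thick ascending limb, Slc12a1, the furosemide-sensitive cotransporter, was 179 to 228 FPKM around dawn and 228 to 266 around dusk (-0.28 ± 0.11), with a narrow overlap. Umod was higher in each dusk library (-0.25 ± 0.12). Cldn10, a claudin for paracellular sodium, was higher in each dawn library (0.39 ± 0.12). The 7 markers of the limb, which include Umod and Slc12a1, summed to 1412 to 1694 FPKM around dawn and 1731 to 1908 FPKM around dusk and were thus apart in the direction of Umod, a difference whose part in these genes was not tested. In the proximal tubule the scaffold genes Slc9a3r1 (-0.20 ± 0.07) and Pdzk1 (-0.17 ± 0.07) were higher in each dusk library. The other 12 of 14 transport genes had no unadjusted p under 0.05, beside 5.5% of all genes with one. Of the 14, 3 had groups apart toward dusk, these 2 included, and 1 toward dawn, beside 4.84% and 5.31% of all genes.

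Of 16 genes of water and urea transport, 4 had an unadjusted p under 0.05 toward dusk and 1, Avpr1a, toward dawn, beside 2.71% and 2.79% of all genes. Aqp6, an intracellular channel of intercalated cells, was at 14.1 FPKM at ZT20, 14.7 at ZT0 and 12.1 at ZT4, against 19.3 at ZT8, 22.5 at ZT12 and 18.4 at ZT16 (log2 difference -0.52 ± 0.11, adjusted p = 0.638). Slc6a12, the betaine transporter that responds to high tonicity, was at 2.62 FPKM at ZT20, 1.39 at ZT0 and 2.24 at ZT4, against 3.16 at ZT8, 3.72 at ZT12 and 6.25 at ZT16 (log2 difference -0.78 ± 0.24). Akr1b3, the aldose reductase that makes the osmolyte sorbitol, was 42.1 to 47.3 FPKM around dawn and 50.6 to 58.1 around dusk (-0.26 ± 0.09). The urea transporter Slc14a1 (-0.27 ± 0.11) was the last of the 4, and in each of them every dusk library was higher. Aqp2, the water channel that vasopressin controls, was at 178 FPKM at ZT20, 107 at ZT0 and 82.3 at ZT4, against 117 at ZT8, 172 at ZT12 and 181 at ZT16. It overlapped, with ZT20 near the dusk maximum.

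**Figure D3:**
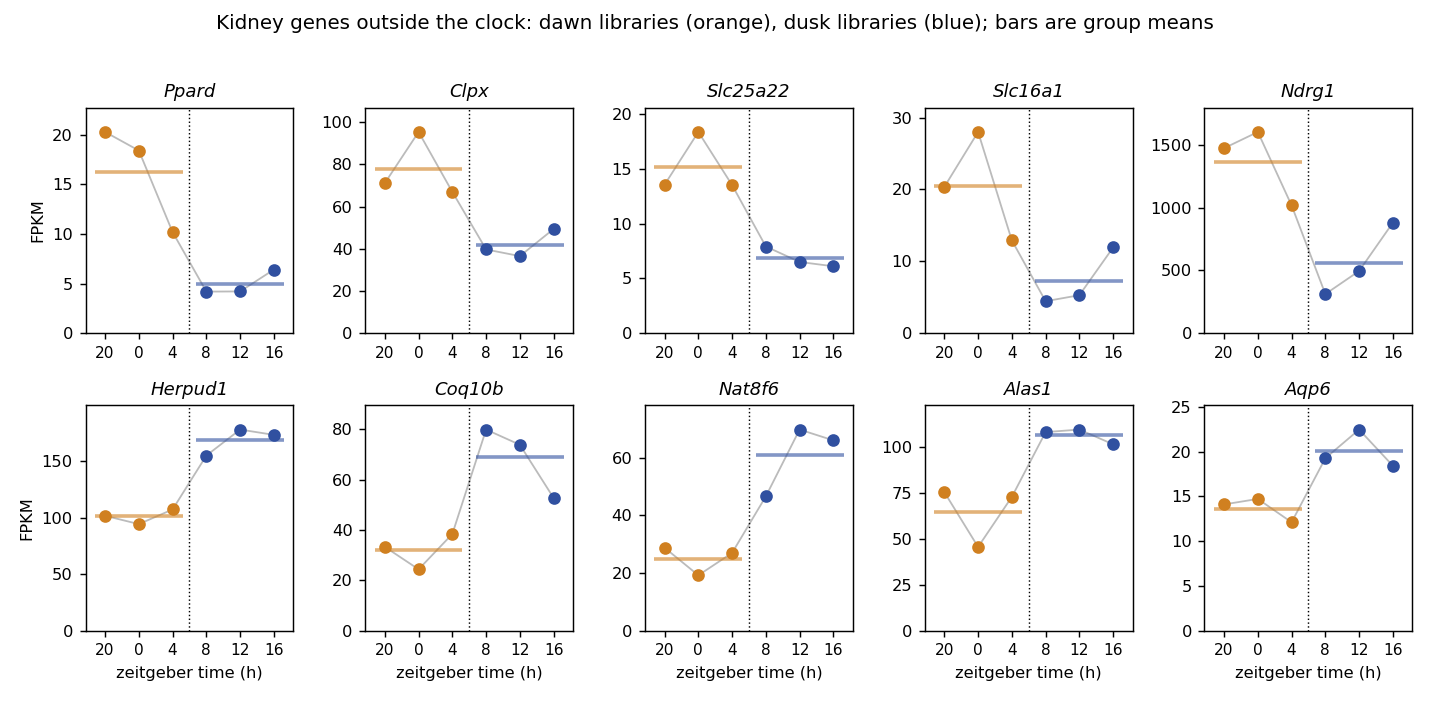
FPKM (vertical axes) of 10 genes outside the core clock in the 6 libraries from ZT20 to ZT16 (horizontal axes); points are single libraries, orange around dawn and blue around dusk, and bars are group means. The upper row shows genes higher in each dawn library and the lower row genes higher in each dusk library, and Ndrg1 and Slc16a1 are higher at ZT16 than at ZT8.

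Ndrg1, a hypoxia-inducible gene of the stress response, was at 1474 FPKM at ZT20, 1603 at ZT0 and 1018 at ZT4, against 312 at ZT8, 495 at ZT12 and 880.3 at ZT16. The means were 1365 ± 307 and 562 ± 290.2 FPKM (SD, n = 3), with a log2 difference of 1.38 ± 0.36 (limma adjusted p = 0.74). Bnip3, in the same list, lay on the dusk side. The other 12 of 14 hypoxia genes had neither an unadjusted p under 0.05 nor groups apart, beside 5.5% and 10.2% of all genes with them. Among 20 genes of the unfolded protein response, Herpud1 and Dnajb9 (-0.51 ± 0.16), a chaperone of the endoplasmic reticulum, had groups apart, both toward dusk. Over all genes, 4.84% had groups apart toward dusk and 10.2% in either direction. Heat shock chaperones had a median of -0.23, with 16 of 21 below 0 and 2 at an unadjusted p under 0.05 toward dusk, beside 2.71% of all genes, Hspb8 (-0.46 ± 0.13) and Hspa8 (-0.81 ± 0.31). Centred on each gene's mean, the median of the list was 0.62 at ZT16 but -0.25 at ZT8 and -0.11 at ZT12, both below ZT20 (0.23), so its dusk side rests on ZT16. Hspa1b, a heat-induced member, was at 7.23 FPKM at ZT20, 4.305 at ZT0 and 4.197 at ZT4, against 6.16 at ZT8, 10.5 at ZT12 and 35.8 at ZT16. It was highest at ZT16, as was Hspa8 at 980.1 FPKM. No gene of 15 immediate early genes or of 16 NRF2 targets had an unadjusted p under 0.05 or groups apart (limma). The shares over all genes were 5.5% and 10.2%. In insulin and IGF signalling, 10 of 18 genes tested were above 0, with a median of 0.03. An unadjusted p under 0.05 was found for 1 toward dawn and 2 toward dusk, beside 2.79% and 2.71% of all genes. Toward dusk, Igfbp4, which binds insulin-like growth factors, was 171 to 190.5 FPKM around dawn and 223 to 284 around dusk (-0.49 ± 0.10). Foxo3, a transcription factor restrained by insulin, was 8.99 to 11.2 and 12.3 to 16.3 FPKM (-0.41 ± 0.13).

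Podocyte, endothelial and stromal markers were highest at ZT20 and ZT16, 1 library of each group. In whole kidney RNA, fewer cells of a type and less RNA per cell cannot be told apart. Podocyte markers had a median of 0.24 (8 of 9 above 0), endothelial markers of 0.18 (8 of 9) and fibroblast and smooth muscle markers of 0.25 (8 of 8). None of the podocyte or endothelial genes had an unadjusted p under 0.05 (limma) or groups apart, beside 5.5% and 10.2% of all genes. Each of the 3 sums was highest at ZT20 and next highest at ZT16, the libraries that stand apart on the first component. Col3a1 (0.50 ± 0.16), a collagen of fibroblasts, and Pdgfrb (0.44 ± 0.14), a receptor of pericytes, were higher in each dawn library. Podocyte markers summed to 85.5 to 135 FPKM around dawn and 72.8 to 112 FPKM around dusk, and endothelial markers to 100.4 to 155 and 85.5 to 126 FPKM. Thick ascending limb markers had a median of -0.24 and those of the proximal tubule, segments 1 and 2, of 0.09. Hemoglobin and other blood markers summed to 148 to 317 FPKM around dawn and 147 to 333 around dusk. None of the podocyte or endothelial markers was listed at 0 in every library. The part of these markers in the differences of other genes was not tested.

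**Figure D4:**
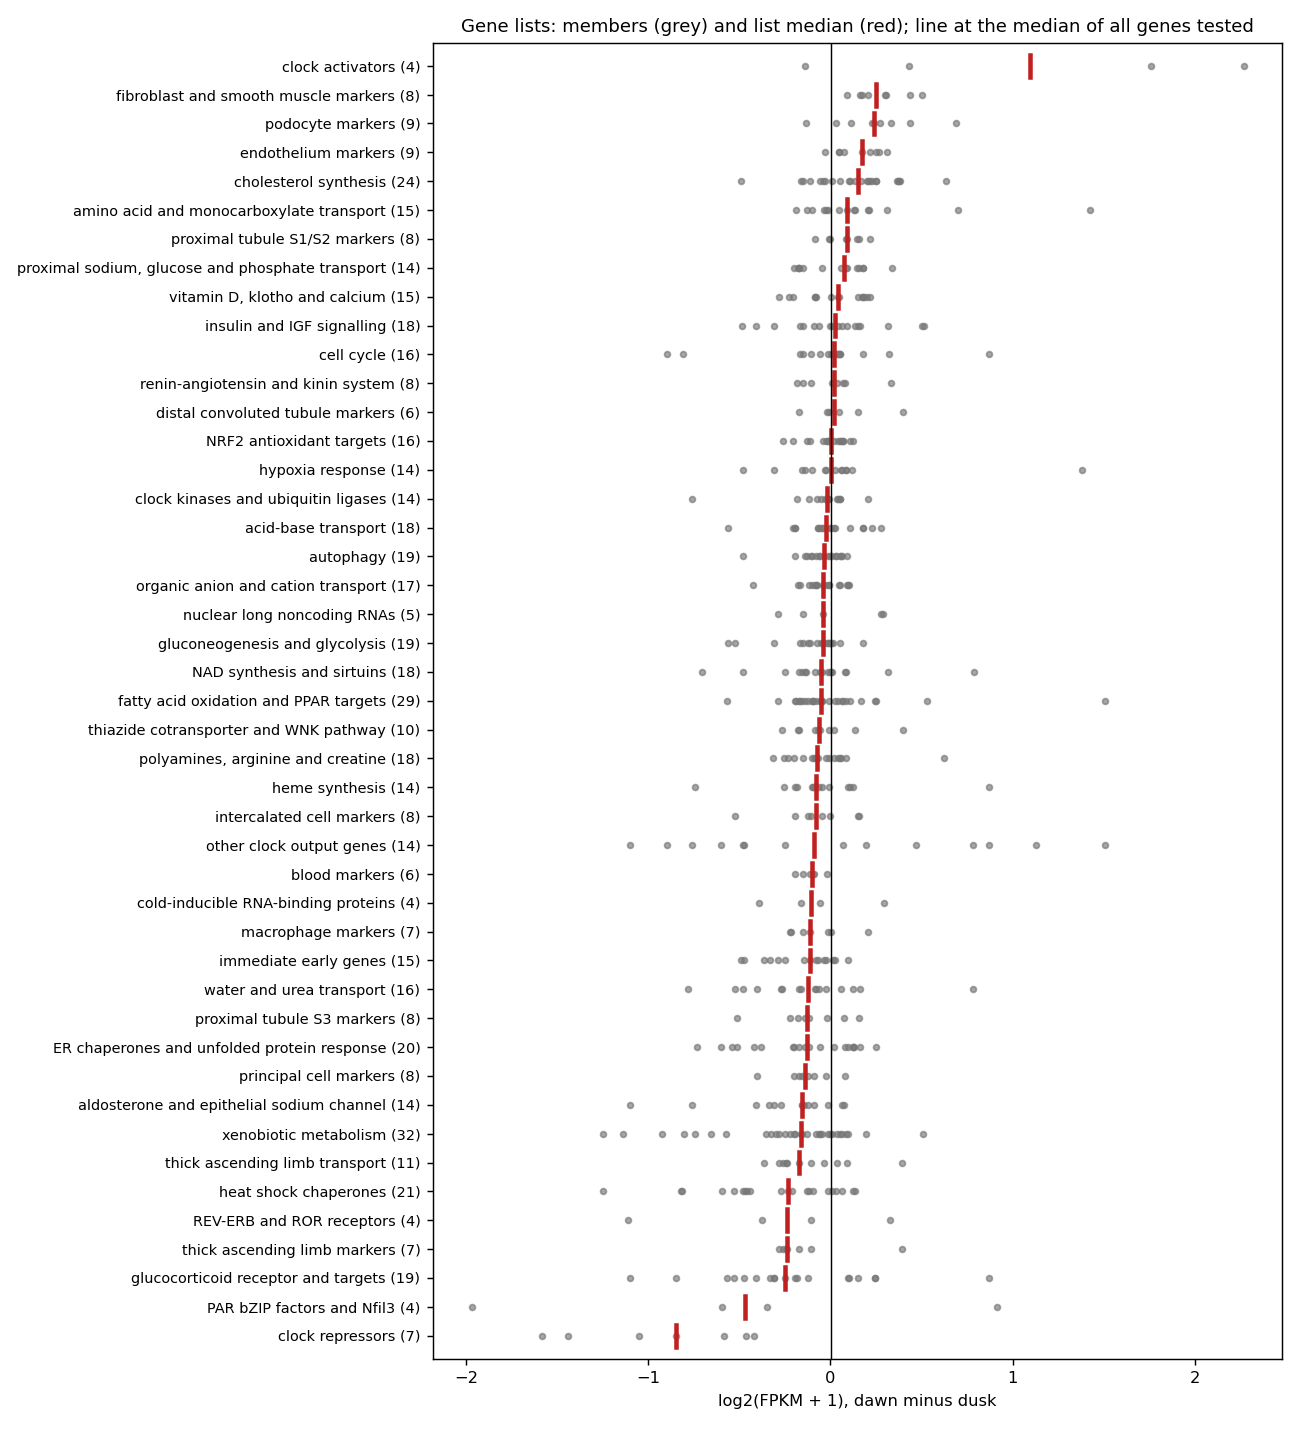
Log2 difference, dawn minus dusk (horizontal axis), of every tested member of each gene list with at least 4 tested genes (grey points; the number of genes stands in brackets) and the list median (red), with a line at the median of all genes tested. Clock activators (1.09) and clock repressors (-0.84) have the medians farthest from 0 among these lists, and the other medians lie between -0.47 and 0.25.

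Single transcripts of a gene lay on opposite sides in some genes whose sum overlapped. With each transcript tested alone, a comparison added after the first results were seen, 3 of 21596 passed (0.0139%, limma adjusted p under 0.05), and 1018 (4.71%) toward dawn and 1059 (4.9%) toward dusk had groups apart. In 59 genes, transcripts had groups apart in both directions. No share over the genes with several tested transcripts is available, so nothing is read from this number. In Phlpp2, which encodes a phosphatase of AKT and other kinases, the transcript ENSMUST00000179721 was at 2.31 FPKM at ZT20, 2.48 at ZT0 and 2.08 at ZT4, against 0.02 at ZT8, 0.0272 at ZT12 and 0.0609 at ZT16. Transcript ENSMUST00000034175 of the same gene was at 0.203, 0.164 and 0.816 FPKM, against 2.59, 2.73 and 2.63 FPKM. The sum of Phlpp2 was level, 2.63 to 3.05 FPKM around dawn and 2.72 to 2.89 around dusk, and neither transcript passed (adjusted p = 0.0798 and 0.614).

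Slc25a51, the mitochondrial NAD carrier, had ENSMUST00000107796 at 36.1, 38.01 and 34.3 FPKM around dawn against 24.97, 24.7 and 27.9 FPKM around dusk. Its other transcript, ENSMUST00000116341, was at 3.07, 0.00939 and 0.00795 FPKM against 6.47, 9.69 and 7.67 FPKM. The transcripts that passed were ENSMUST00000176683 of the ribosomal protein gene Rpl41, the transcript of Gm11966 and a transcript of Adtrp, a hydrolase of fatty acid esters. ENSMUST00000176683 was at 60.8, 55.7 and 64.01 FPKM around dawn and at 0, 0.0163 and 0.00574 FPKM around dusk, while the sum of Rpl41 was 117 to 271 and 200.1 to 224 FPKM. Levels of single transcripts divide reads that several transcripts share, and the estimator is not given in the sources used here.

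**Figure D5:**
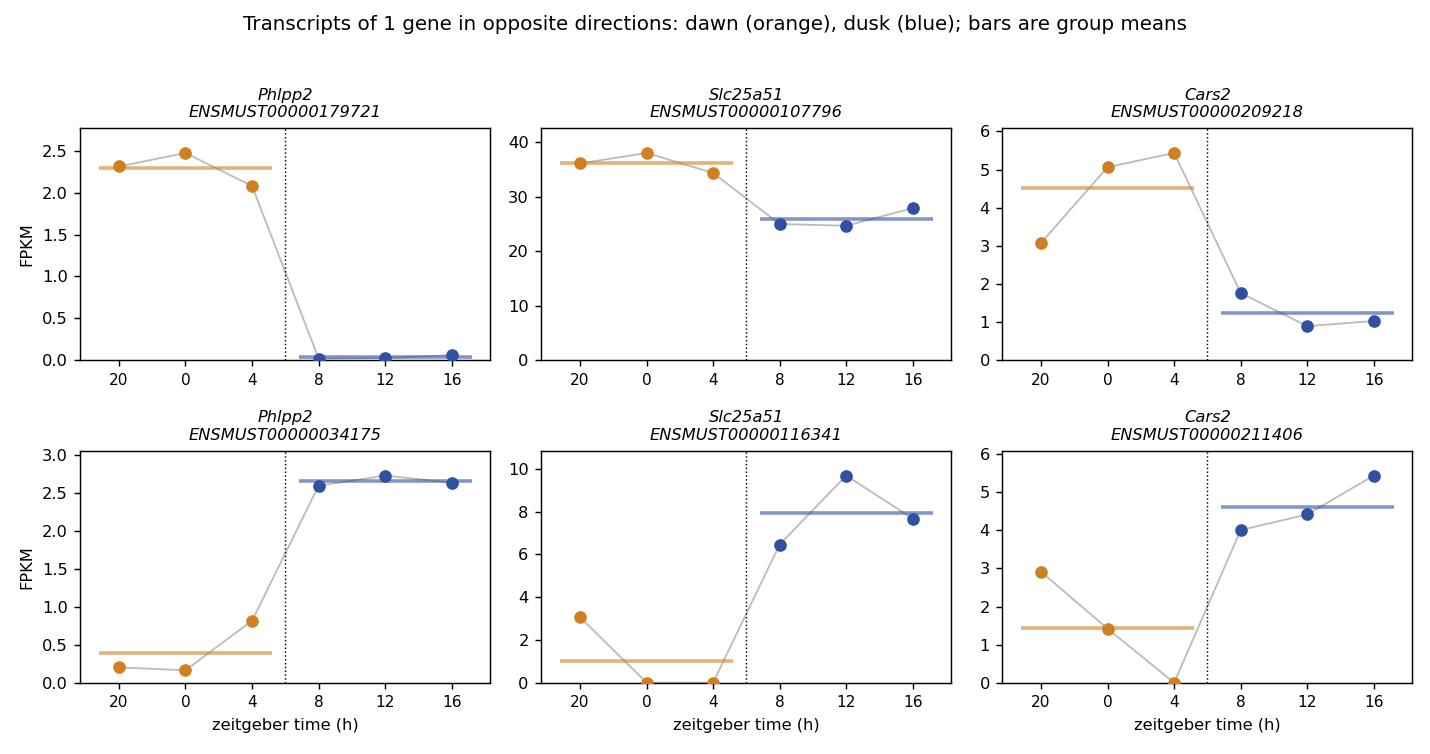
FPKM (vertical axes) of 2 transcripts each of Phlpp2, Slc25a51 and Cars2 in the 6 libraries from ZT20 to ZT16 (horizontal axes); points are single libraries, orange around dawn and blue around dusk, and bars are group means. The upper row is higher in each dawn library and the lower row in each dusk library.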

How the data were processed

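RNA-seq of 6 mouse kidney libraries was analysed, 1 library for each of 6 times. The deposited table holds FPKM for 128603 transcripts, made by the authors. Per the submitters' processing notes, bcl2fastq 2.20 and the build mm9 were used. No aligner or estimator is named there. The loci in the table match GENCODE M21 on GRCm38 (98.72% of matched transcripts inside the stated locus), so coordinates are given as GRCm38. Low values do not step by whole reads, so depth is unknown and no counting interval is given.

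FPKM was summed over the transcripts of a gene symbol (20 tested symbols join more than 1 gene identifier) and tested as log2(FPKM + 1) where the mean of the 6 libraries reached 1 FPKM. limma 3.58.1 (R 4.3.3, lmFit, eBayes with an intensity trend, two-sided) compared the groups with 4 residual degrees of freedom and Benjamini-Hochberg adjustment over all genes, with a threshold of 0.05. The alternative fit used a cosine and a sine of 24 h, with the cosine term scaled to the difference of the group means. The fit was run on simulated data with planted differences, to check the size of the estimates. The simulated noise was independent and held no daily course inside a group, so the run does not gauge the calls made here. Tables were made in Python 3.11.15 (pandas 2.3.3, numpy 2.4.6) and figures in matplotlib 3.10.9.

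The time points served as replicates, and nothing in the labels says how many animals a library holds. The p-values set the difference of the groups against the spread between libraries of a group, which includes the daily course. They cannot separate variation between animals from that daily course. The named genes are the clock genes tested, the 12 with the smallest p in each direction with a mean of at least 5 FPKM, and up to 4 of each list by p, and the text prints fewer. The groups, lists and rule were chosen with earlier results of these data known. Counts of list members beside the share of all genes are therefore descriptions, and nothing is read from them. Genes named beyond the rule (Gm25848, Atp5j, Phlpp2, Slc25a51, Cars2, Rpl41, Adtrp, those passing in the wave fit, and list members named for their role) were chosen after their values were seen. Results for a few genes are not reported here.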

Additional observations from a re-analysis of the deposited data

How the results depend on the processing

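The number of genes passing the adjusted threshold was 1 in the comparison of groups, 2 with a pseudocount of 0.1, 24 in the wave fit and 6 without ZT16 and ZT20. It lay between 1 and 4 when each library was left out in turn. Gm11966 passed in every setting but the wave fit, and the other genes that passed in settings besides the wave fit were small or unnamed RNA genes. The 1290 genes with groups apart (10.2% of those tested) became 2172 with no filter on low values (8.68%, as more genes were tested), 4689 without ZT16 and ZT20 and between 1985 and 3017 with single libraries left out, where fewer libraries have to be ordered. The 699 genes at an unadjusted p under 0.05 (5.5%) became 1248 with no filter (4.99%), 1176 in the wave fit and between 376 and 921 with single libraries left out, lowest without ZT12 and 454 without ZT0. Of the 699 genes, 474 (67.8%) were also among the 632 found with the most abundant transcript of each gene.

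Directions turned when single libraries were left out, with ranges from -0.64 to 1.49 for Nr1d1 (below 0 without ZT4 or ZT16), from -1.29 to 0.0427 for Cry1 (above 0 without ZT4), from -0.38 to 0.22 for Rpl41 (above 0 without ZT4) and from -0.0299 to 0.0477 for Phlpp2. Phlpp2 also turned to -1.42 with its most abundant transcript, -0.0112 with quantile normalization and -0.000858 in the wave fit. The cause was not tested. No paired analysis was possible because the labels give 1 sample per time and no number shared between groups. With depth unknown, the counting error of low genes could not be given.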

Other observations

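Several genes that passed only in the fit of a 24 h wave lie outside the gene lists. Glul, the glutamine synthetase, was at 206 FPKM at ZT20, 142 at ZT0 and 170.3 at ZT4, against 242 at ZT8, 282 at ZT12 and 260.4 at ZT16 (log2 difference -0.61 ± 0.14, limma adjusted p = 0.0473 in the wave fit). Ak4, an adenylate kinase of mitochondria, was at 149.5 FPKM at ZT20, 100.1 at ZT0 and 119.9 at ZT4, against 173 at ZT8, 212 at ZT12 and 192 at ZT16 (log2 difference -0.65 ± 0.15, 0.0358 in the wave fit). Both were higher in each dusk library. Jchain, the chain that joins IgA and IgM and is made by plasma cells, was at 5.19 FPKM at ZT20, 4.71 at ZT0 and 8.93 at ZT4, against 11.9 at ZT8, 17.3 at ZT12 and 11.2 at ZT16 (log2 difference -1.01 ± 0.24). Prnp, which encodes the prion protein, had levels of 78.9 FPKM at ZT20, 58.1 at ZT0 and 60.2 at ZT4, against 84.1 at ZT8, 114 at ZT12 and 109 at ZT16 (log2 difference -0.63 ± 0.16). Both were again higher in each dusk library and highest at ZT12. Cd200 (-0.61 ± 0.21), a membrane glycoprotein, overlapped.

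On the dawn side, Wsb1, part of a ubiquitin ligase, was at 57.2 FPKM at ZT20, 64.2 at ZT0 and 41.7 at ZT4, against 30.7 at ZT8, 29.2 at ZT12 and 35.6 at ZT16 (log2 difference 0.74 ± 0.16). Col4a3, a collagen chain of the glomerular basement membrane, was 27.002 to 34.3 FPKM around dawn and 17.4 to 25.02 around dusk (0.59 ± 0.15). Bcl7c (0.66 ± 0.16) and Ldoc1l (0.82 ± 0.23) were also higher in each dawn library, while Nr2f6 (0.58 ± 0.19), a nuclear receptor, overlapped. Cyp7b1, an oxysterol hydroxylase counted among the markers of the last proximal segment, was at 65.3 FPKM at ZT20, 92.3 at ZT0 and 101 at ZT4, against 129 at ZT8, 126 at ZT12 and 109 at ZT16 (log2 difference -0.51 ± 0.16). It was higher in each dusk library, as was Slc5a10 (-0.22 ± 0.09), a sugar transporter of the same list.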
